A study of Mus musculus with 12 samples.

Results

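The mouse genome holds a large family of zinc finger genes whose names are Zfp followed by a number. The 205 genes described here are those with such a name (Zfp, a number and at most 1 letter from a to d) whose unsorted ORFtag insertions lay most often on a chromosome other than 7, 13 or 17, without Zfp42, Zfp36, Zfp57, Zfp574 and Zfp598. They were 205 of 390 numbered Zfp genes among 20409 genes in all. Of the rest, 89 lay on chromosome 7, 35 on chromosome 13 and 42 on chromosome 17, 5 were left out by name, and 14 had no unsorted insertion, so that the rule gave them no chromosome. Of these 14 genes, Zfp937 had 1 insertion in a sorted library and the others had none. The rule reads names and unsorted insertions, while the 5 genes left out by name were chosen with earlier results known. The 205 genes lay on 17 chromosomes, most often on chromosome 4 (27 genes), chromosome 8 (24), chromosome 2 (21), chromosome 11 (20) and chromosome 9 (19).

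ORFtag uses a retroviral cassette with a PGK promoter, a neomycin resistance gene, an IRES, a protein tag and a splice donor. A cassette that lands upstream of or inside a gene makes a transcript that is spliced into a downstream exon, so that the cell produces the protein of that gene with the tag near its N terminus. The cells were AN3-12 mouse embryonic stem cells, each screen in a clonal reporter line of its own, infected at 6 µg/ml polybrene and selected with 0.1 mg/ml G418. TetR, a bacterial protein that binds TetO DNA, served as the tag in the activator and repressor lines, whose reporter on chromosome 15 carried 7 TetO sites beside a weak pMYLPF promoter (activator) or a strong pPGK promoter (repressor) that drove a puromycin resistance gene and GFP. The last line looked for post-transcriptional gene regulators (PTGR) with λN, a peptide that binds boxB RNA, as the tag, and 10 boxB sites followed the GFP sequence in a reporter inserted at random. GFP-positive cells were sorted in the activator screen and GFP-negative cells in the repressor screen. For PTGR, sorts for low GFP were followed by Cre-driven loss of the boxB sites and a sort for regained GFP. Each screen had 2 sorted and 2 unsorted libraries. A result holds for 1 reporter clone per screen, and for tagged proteins that the PGK promoter overproduces.

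C2H2 zinc fingers are short repeats that each hold a zinc ion and together read a DNA sequence. Many zinc finger proteins also carry a KRAB domain near the N terminus, which binds Trim28 (KAP1). Trim28 recruits the H3K9 methyltransferase Setdb1 and HP1 proteins (Cbx1, Cbx3 and Cbx5), and in embryonic stem cells this system keeps endogenous retroviruses silent. In coding sequences of GENCODE vM21, a KRAB box motif was found in 83 of the 205 genes, and a narrower form of the motif in 60. The median number of C2H2 fingers in the longest protein of a gene was 9.

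Each insertion was assigned to the closest downstream exon that is not a first exon, and the splicing itself was not read. Cassettes of all reading frames were mixed, so a tag need not be in frame with the assigned exon. The assigned exon is part of each result, since it sets which part of the protein the tag could reach. An exon or acceptor is called used where insertions were assigned to it. The splice acceptors most used in the sorted repressor cells are printed here for 11 of the 19 genes called there. They show where a fusion at the assigned exon would begin. The acceptor printed for Zfp423 took 73 of 152 sorted (48.0%) and 220 of 402 background insertions (54.7%), so others were used there as well. The 11 are not a ranking. Zfp932 (12 sorted insertions) and Zfp873 (10) are printed, while genes with more, such as Zfp280b (49), are not. Both hold the letters TATTTTAG described below. Each printed sequence has the last 20 bases of the intron and the first 10 bases of the exon. It runs 5′ to 3′ on the strand of the gene, with the acceptor AG in capitals.
Zfp872 exon 2, chr9:22197047-22197076 (+): tctttcatgggatgttttAGgactcagtgg
Zfp609 exon 3, chr9:65731192-65731221 (-): tactttctcttctcttacAGatggagtccc
Zfp930 exon 2, chr8:69226323-69226352 (+): atgcattatggatattttAGgacgcactga
Zfp809 exon 2, chr9:22235000-22235029 (+): gaagagaaacgtcattccAGgggttggtgt
Zfp777 exon 2, chr6:48044692-48044721 (-): ccttctctccttgaacacAGgtccagcagc
Zfp423 exon 2, chr8:87904539-87904568 (-): ccttctttcttctcttccAGttgaagaggg
Zfp248 exon 4, chr6:118433422-118433451 (-): aaaaggatgttttgttccAGgagcaagtgt
Zfp961 exon 2, chr8:71965774-71965803 (+): taacgtatgggatgtttcAGgcctcggtga
Zfp950 exon 2, chr19:61127555-61127584 (-): acatgtatgggatattttAGgatgcagtga
Zfp932 exon 2, chr5:110006924-110006953 (+): acatgtatggaatattttAGgatgcattga
Zfp873 exon 2, chr10:82058350-82058379 (+): acatgtgtgggatattttAGgctgcggtga
Coordinates are those of mm10 (GRCm38), and the bases are from the GRCm38 sequence of RefSeq. In 10 of the 19 genes called in the repressor screen, the most used exon was the one that holds the KRAB box. In pairs of these 10 exons, 5 to 19 of the last 20 intron bases were identical, with a median of 11 and the shared AG included. The intron ends of Zfp932 and Zfp950 differed at 1 base, as did those of Zfp873 and Zfp950. The letters TATTTTAG, read on the strand of the gene and ending at the acceptor, closed the intron in front of the KRAB exon in 4 of 14 called genes with the motif (Zfp873, Zfp930, Zfp932 and Zfp950), in 5 of the other 69 genes with a KRAB box, and at 2.11% of 1282 acceptors in all 205 genes. These letters were chosen after the sequences were seen.

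The sum of the 6 unsorted libraries, called the background, held 1 to 980 insertions per gene for the 205 genes, with a median of 16, beside a median of 19 over all genes with a background insertion. Each of the 205 genes has at least 1 by the rule. Insertions within 200 kb of the assigned exon were counted, in all 14705 to 60980 in the sorted libraries and 54088 to 233799 in the unsorted ones. At least 20 background insertions fell on 94 genes, and fewer than 3 on 18 genes. The 5 genes with the most were Zfp516 (980), a factor of brown fat cells, Zfp236 (823), Zfp217 (539), an oncogene product that binds corepressors, Zfp704 (513) and Zfp532 (493). None of these 5 genes was called in any screen.

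The 205 genes together took 1.09% to 1.22% of the insertions in the 6 unsorted libraries. In the sorted repressor libraries they took 4.68% (95% Wilson interval 4.41% to 4.97%) and 4.66% (4.33% to 5.00%). In the sorted PTGR libraries the shares were 1.16% and 1.15%, and in the sorted activator libraries 1.09% and 0.673%. The rise in the repressor screen lay in 19 genes, which went from 0.221% and 0.222% of the unsorted to 3.94% and 4.03% of the sorted repressor insertions. The other 186 genes took 0.982% and 0.995% of the unsorted and 0.746% and 0.631% of the sorted insertions of that screen. Because these 19 genes were picked by their sorted counts, the split is a description.

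**Figure D1:**
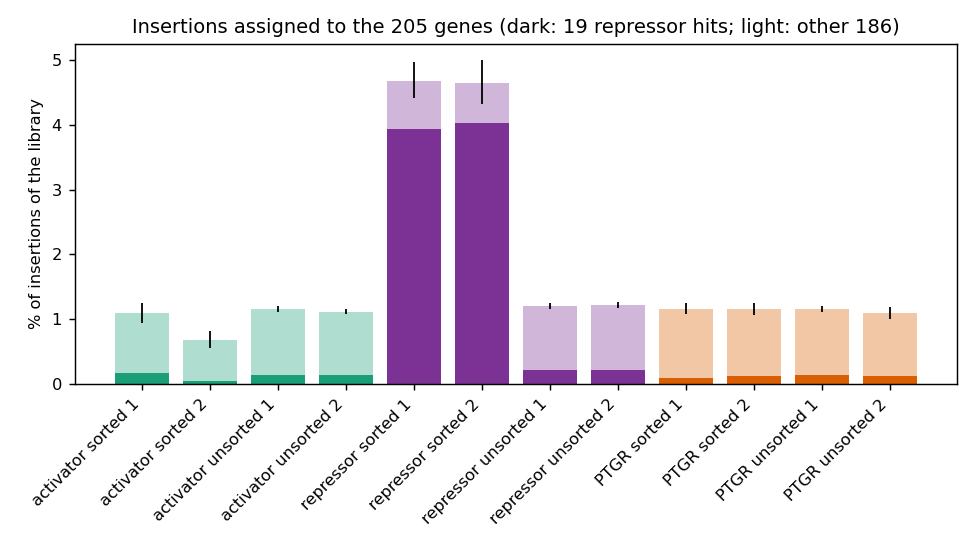
Share of the insertions of each library (%, vertical axis) that was assigned to the 205 genes, for the 12 libraries. The dark part of a bar is the 19 genes called in the repressor screen, the light part the other 186 genes, and the black line the 95% Wilson interval of the whole. Both sorted repressor bars (4.68% and 4.66%) stand above the other 10, which lie between 0.673% and 1.22%.

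Enrichment was tested gene by gene, with the 2 sorted libraries of a screen summed and set against the background, by Fisher's exact test in its one-sided form. Genes with at least 3 sorted insertions were tested, and hits are those whose log2 odds ratio reached 1 with an adjusted p under 0.001. The 3 screens share the background libraries. In the repressor screen 19 of the 49 genes tested were hits (38.8%), while 8.18% of all 2346 genes tested were. Of all 205 genes 9.27% were hits, beside 1.05% of the 18268 genes with a background insertion. Tested over genes with at least 20 background insertions, 15 of 94 were called (16.0%), beside 1.66% of all such genes. Of the other genes 104 had no sorted repressor insertion and 52 had 1 or 2. A count of 0 in 37470 sorted insertions allows up to 0.801 insertions per 10000.

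The Fisher test takes each insertion as independent. The spread between libraries was therefore taken into account with the quasi-likelihood test of edgeR on the 2 sorted and 2 unsorted repressor libraries. Of the insertions in the 2 sorted libraries, 18.8% and 27.5% lay at positions found in both. Whether these replicates were independent was not tested, so the edgeR p-values hold for the spread between these libraries only. edgeR called 19 of the 89 genes it tested as higher in sorted cells and 0 as lower (adjusted p below 0.05). Where all genes with at least 1 insertion entered the test, it called 7 as higher. Over all 7688 genes tested, 2.58% were called higher and 1.16% lower. At an unadjusted p below 0.05, 22 of the 89 were higher and 6 lower, and DESeq2 called 20. With the replicate number as a block 18 were called, beside 2.32% of all genes. The 19 were 18 of the hits and Zfp964, while the hit Zfp454 had fewer than the 10 insertions required. The median log2 fold change of all genes was -0.99 with TMM normalization and -1.30 without it, so each fold change of the repressor screen stands against that level. Both sorted libraries lay above all 6 unsorted ones, in insertions per 10000, in 30 of the 205 genes (14.6%), beside 3.17% of all genes with a background insertion. The 19 hits, picked for high sorted counts, were among the 30.

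Zfp872 (chr9:22188090-22202123, plus strand), a KRAB protein with 12 C2H2 fingers, had more sorted insertions than any other of the 205 genes. It had 281 and 220 insertions in the sorted repressor libraries, or 126 and 145 per 10000. The unsorted repressor libraries had 3.79 and 4.24 per 10000, and the 4 unsorted libraries of the other screens 0.912 to 1.37. The sorted libraries were far above all unsorted ones, and within these the repressor pair was above the other 4. The log2 odds ratio was 5.97 ± 0.12 (SE, from counting) and the edgeR log2 fold change 5.36 (adjusted p = 8.44e-62). Of the 501 sorted insertions 99.8% lay before the gene start as annotated, and 455 (90.8%) fell within chr9:22162001-22167000. That stretch lies between Pigyl (chr9:22156846-22158358) and Zfp872 and ends 21.1 kb before the gene. The background had 181 of its 221 insertions (81.9%) in the same 5 kb. With positions within 10 bp of each other counted once, the sorted count of Zfp872 fell to 246, and without positions present in both sorted libraries it was 343. Zfp872 was a hit either way.

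Zfp809 lies next to Zfp872 on the same strand, 23591 bp further on (chr9:22225714-22243354). It is known to recognise the primer binding site of murine leukaemia viruses and to silence them in embryonic stem cells. It had 46 and 53 sorted repressor insertions (20.7 and 34.9 per 10000). The unsorted repressor libraries had 1.20 and 0.622 per 10000, and the other unsorted libraries 0.185 to 0.570. Its log2 odds ratio was 5.62 ± 0.24. All 99 sorted insertions preceded the exon with the KRAB box, while 46 of 55 background insertions did (83.6%, interval 71.7% to 91.1%).

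Zfp930 and Zfp963 on chromosome 8 lie 511103 bp apart on opposite strands, and Zfp709 and Zfp961 lie 55311 bp apart on the same strand. From Zfp930 to Zfp961 (chr8:69209038-71993792) there were 10 of the 205 genes, and these 4 were hits. Both ends of this stretch were set at hits, so the count is a description. On all of chromosome 8, 6 of 24 genes were hits, beside 9.27% of the 205 genes. Zfp930 had 28.3 and 38.8 insertions per 10000 in the sorted repressor libraries. In the unsorted libraries it had 0.241 to 1.15, and its log2 odds ratio was 5.60 ± 0.22. Zfp961 had 21.1 and 13.8 per 10000 in the sorted libraries against 0.342 to 0.975 in the unsorted ones (log2 odds ratio 4.93 ± 0.25). Both genes are KRAB zinc finger genes, and no sorted library overlapped an unsorted one. Zfp963 had 15 and 7 sorted insertions (log2 odds ratio 4.98 ± 0.45). It overlaps Gm20422 on the same strand, so an insertion there can have been given to either gene. Zfp709, with 18 C2H2 fingers the most among the KRAB hits, had 16 and 8 sorted insertions (log2 odds ratio 3.77 ± 0.36).

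Zfp777 (chr6:48024188-48048911, minus strand) has 885 residues, the longest protein among the KRAB hits. It had 29.2 and 24.3 insertions per 10000 in the sorted repressor libraries. The 6 unsorted libraries had 0.727 to 1.49, and its log2 odds ratio was 4.75 ± 0.20. Zfp777 was the KRAB hit in which the place of the sorted insertions differed most from the background with regard to the KRAB exon. Of the sorted insertions 82 of 102 (80.4%, interval 71.6% to 86.9%) were assigned to that exon or an earlier one. Of the background insertions 53 of 104 (51.0%, 41.5% to 60.4%) were. Zfp248 (chr6:118427319-118455528, minus strand) had 18.4 and 20.4 per 10000 in the sorted and 0 to 0.678 in the unsorted libraries (log2 odds ratio 5.94 ± 0.31). Zfp950 (chr19:61053840-61140840, minus strand) had 16.6 and 11.2 in the sorted and 0.171 to 0.861 in the unsorted libraries (log2 odds ratio 5.10 ± 0.29). In both genes every sorted insertion was assigned to the KRAB exon or an earlier one, as was every background insertion (32 in Zfp248 and 43 in Zfp950).

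The other 5 KRAB hits had 8 to 24 sorted insertions. Zfp1 had 14 and 10 in the sorted repressor libraries (log2 odds ratio 3.60 ± 0.35). Zfp932, a KRAB protein known to bind endogenous retroviruses, had 6 and 6 (4.77 ± 0.59). Zfp984 had 10 and 4 (3.77 ± 0.47) and Zfp873 had 7 and 3 (4.39 ± 0.61). Without sorted replicate 1, Zfp984 (log2 odds ratio 3.26, adjusted p = 0.00587) and Zfp873 (3.96, adjusted p = 0.00728) missed the threshold of the Fisher test. Zfp454 had 4 and 4 sorted and 8 background insertions (4.77 ± 0.72). The standard errors of these 5 genes are about 3 to 6 times that of Zfp872.

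**Figure D2:**
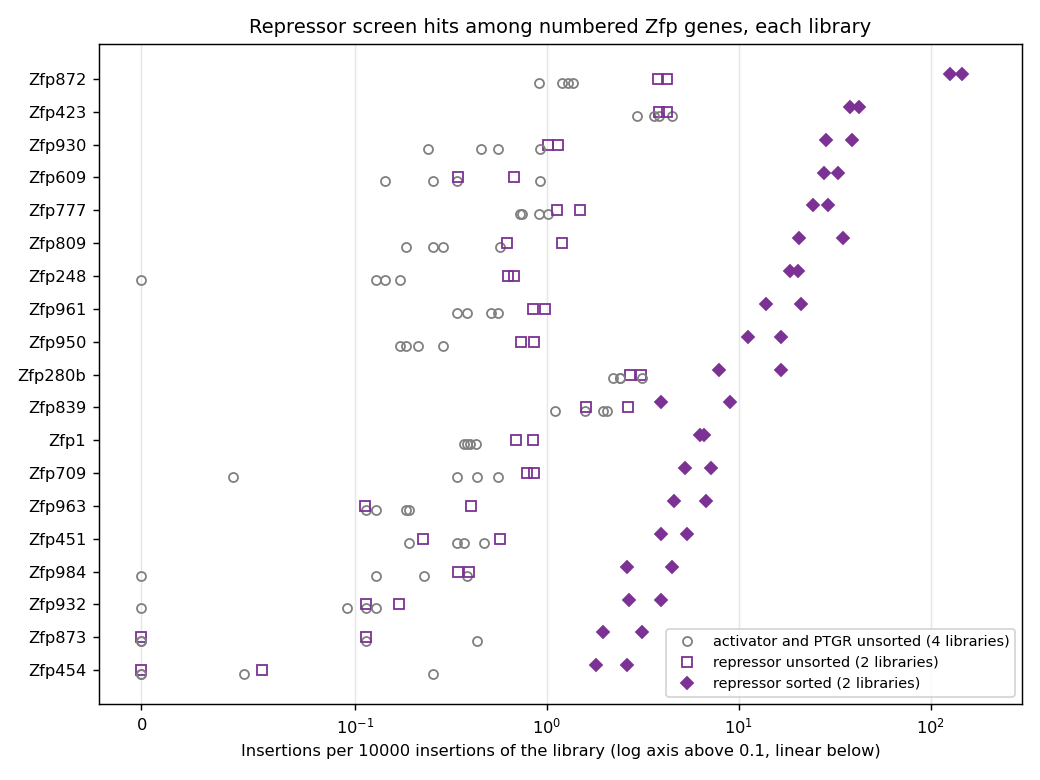
Insertions per 10000 insertions of a library (horizontal axis, logarithmic above 0.1 and linear below) for the 19 hits of the repressor screen, ordered by their number of sorted insertions. Filled diamonds are the 2 sorted repressor libraries, open squares the 2 unsorted repressor libraries and open circles the 4 unsorted libraries of the activator and PTGR screens. In every gene both diamonds lie to the right of all open symbols, from 126 and 145 in Zfp872 to 1.80 and 2.63 in Zfp454.

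Among the 19 hits, 14 had the KRAB box motif and 5 did not. Of the 83 genes with the motif 16.9% were hits, and of the 122 genes without it 4.10%. The genes with the motif had a median of 19 background insertions and those without it 15.5. Among genes with at least 20 background insertions, 10 of 39 with the motif and 5 of 55 without it were hits. This wider motif was drawn after the first results. With the narrower form, 9 of the 60 genes that have it and 10 of the 145 without it were hits, so the split depends on how the motif is drawn. The KRAB hits had 7 to 18 C2H2 fingers (median 11.5) in proteins of 383 to 885 residues, beside medians of 12 fingers and 567 residues in the 69 genes with a KRAB box that were no hit. These 69 genes took 21.0 and 21.2 insertions per 10000 in the unsorted and 22.5 and 19.7 in the sorted repressor libraries. The genes that were no hit and in which the motif was not found took 77.2 and 78.3 in the unsorted and 52.1 and 43.4 in the sorted ones. The search cannot show that a KRAB domain is absent. Both groups were picked by not being hits, so these values are a description.

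The 5 hits without the motif were led by Zfp609 (chr9:65692391-65827564, minus strand), a long protein of 1413 residues with 1 C2H2 finger that is known to work with the Integrator complex. It had the highest log2 odds ratio of the 19 hits, 6.33 ± 0.27. Its insertions per 10000 were 27.8 and 32.9 in the sorted repressor libraries. In the unsorted libraries they were 0.144 to 0.924. Exon 3 received 103 of 112 sorted insertions (92.0%) and 26 of 38 background insertions (68.4%). Its paralog Zfp608 had 2 and 2 sorted and 12 background insertions (log2 odds ratio 3.18 ± 0.83, adjusted p = 0.0208), which missed the threshold.

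Zfp423 (chr8:87661810-87959595, minus strand), with 27 C2H2 fingers, acts with EBF and SMAD factors in neural and fat cell development. It had 42.2 and 38.1 insertions per 10000 in the sorted repressor libraries and 2.96 to 4.50 in the 6 unsorted ones. This gave a log2 odds ratio of 3.37 ± 0.14. Zfp451, a SUMO ligase, had 12 and 6 sorted and 37 background insertions (3.73 ± 0.41). Exon 3 was the assigned exon of 7 of 18 sorted and 3 of 37 background insertions. Zfp280b had 37 and 12 sorted insertions (2.28 ± 0.22) and Zfp839 had 20 and 6 (1.86 ± 0.30). These were the lowest odds ratios among the 19 hits. Without sorted replicate 1 neither passed: the log2 odds ratio was 1.55 for Zfp280b (adjusted p = 0.00632) and 1.04 for Zfp839 (adjusted p = 0.251).

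**Figure D3:**
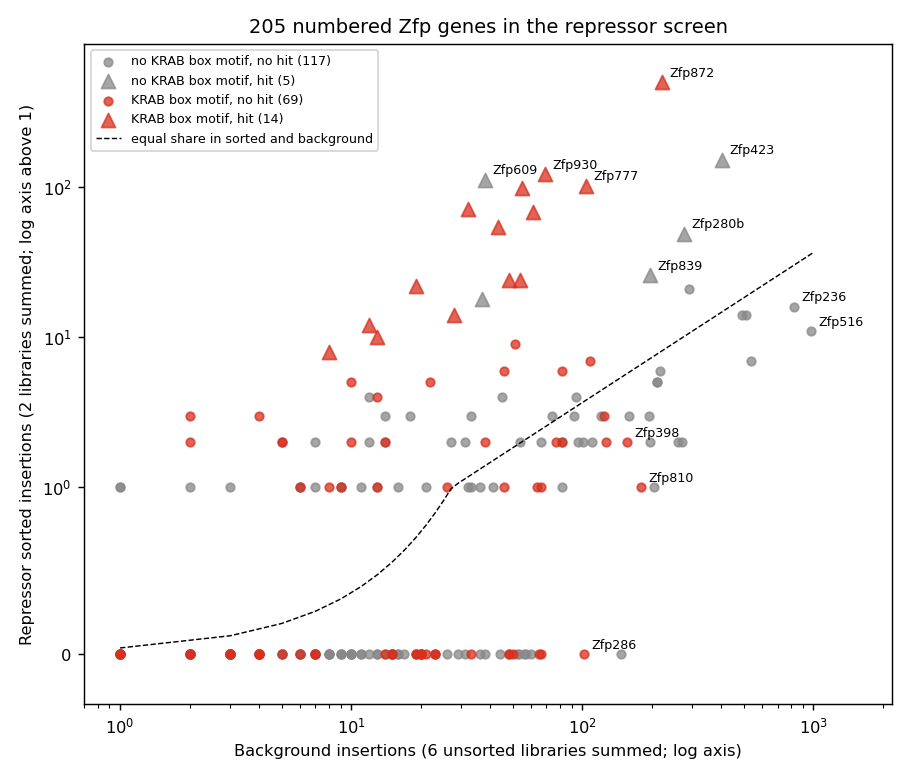
Each point is 1 of the 205 genes, with the background insertions (6 unsorted libraries summed, logarithmic axis) across and the insertions in both sorted repressor libraries (logarithmic above 1, linear below) upwards. Red marks genes with a KRAB box motif and grey those without, triangles are the 19 hits, and the broken line is where a gene would have the same share in both. Hits of both colours stand above the line, as Zfp872 with 501 sorted and 221 background insertions, while Zfp810 (1 and 180) and Zfp516 (11 and 980) lie below it.

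Many genes with a KRAB box were reached often without being enriched. Of the 39 with at least 20 background insertions, 13 had no sorted repressor insertion. Some of these had only 20 to 23 background insertions, such as Zfp951 and Zfp26, and at that level a sorted count of 0 is unremarkable. The share with none over all genes with as many background insertions was not counted, so the 13 are a description. Zfp810, which lies beyond Zfp809 on chromosome 9, had 1 and 0 sorted insertions and 180 background insertions (log2 odds ratio -2.72 ± 1.45). Zfp398 had 1 and 1 sorted and 157 background insertions. Zfp786 had 1 and 1 with 127, and Zfp286 had 0 and 0 with 102. These 4 genes are named after their values were seen, as those with the most background insertions and at most 2 sorted ones. Zfp286 had 0.998 insertions per 10000 in the background, above the 0.801 that a count of 0 allows. edgeR did not call it (adjusted p = 0.254).

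Below the threshold, the 5 genes with the lowest adjusted p among those with a log2 odds ratio of at least 1 were Zfp791, Zfp964, Zfp663, Zfp867 and Zfp608. All but Zfp608 have the KRAB box motif. Zfp791 had 5 and 0 sorted repressor insertions (log2 odds ratio 3.77 ± 0.79, adjusted p = 0.00148). Zfp964, between Zfp930 and Zfp963, had 3 and 6 (2.27 ± 0.52, adjusted p = 0.00292), and edgeR called it higher (adjusted p = 0.0298, and 0.145 with the replicate number as a block). Zfp663 had 1 and 2 sorted and 2 background insertions, and Zfp867 had 2 and 1 sorted and 4 background insertions. For these last 2 genes the counts are too small for a firm odds ratio.

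A cassette in the reversed orientation cannot be spliced into the gene, so orientation is a control within each gene. At the 19 hits, 1489 sorted repressor insertions were in the sense orientation and 31 were reversed, or 98.0% sense (interval 97.1% to 98.6%). In the background the share was 56.8% (55.0% to 58.5%). All 19 genes had a higher sense share in the sorted cells, which ranged from 88.9% in Zfp454 to 100%, beside 47.1% to 81.2% in the background. The sense counts chose these genes, so their excess is a description, while the reversed counts were not used for the choice.

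**Figure D4:**
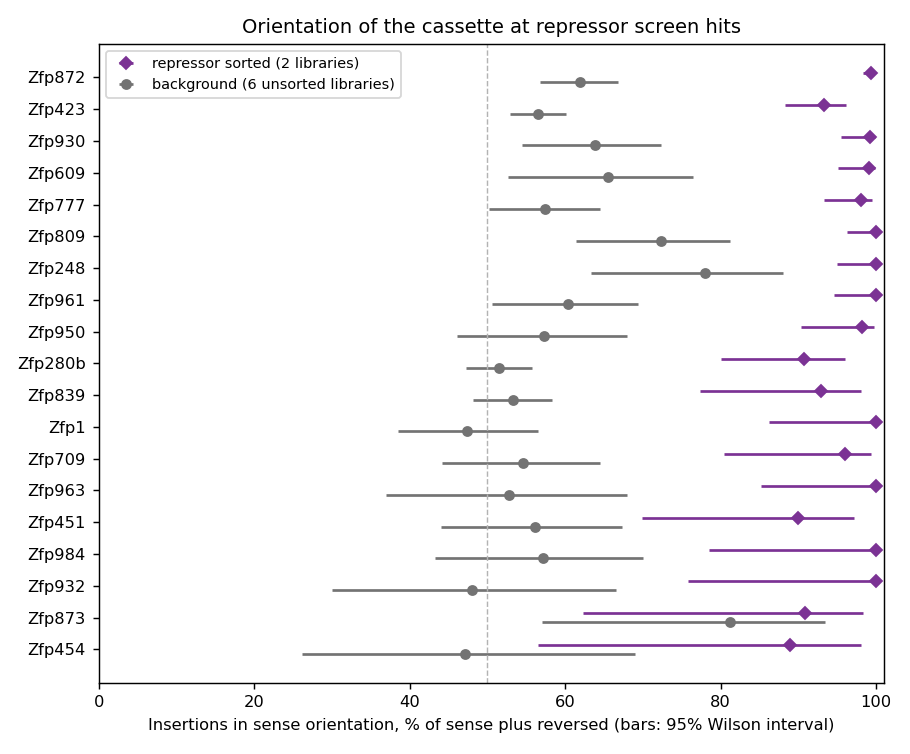
Share of insertions in the sense orientation (% of sense plus reversed insertions, horizontal axis) for the 19 hits of the repressor screen. Diamonds are the sorted repressor libraries and circles the background, both summed over libraries, with 95% Wilson intervals. The diamonds lie between 88.9% and 100%, to the right of the circle of the same gene in all 19 genes, and the intervals overlap in Zfp873 and Zfp454.

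The place of the insertions differed between sorted cells and the background in many hits. The share upstream of the annotated gene was higher in the background in 14 of 19 hits, and the median distance to the assigned exon was lower in sorted cells in 14 of 19. Upstream of the annotated gene lay 25.4% (18.5% to 33.8%) of the sorted and 63.8% (52.0% to 74.1%) of the background insertions of Zfp930, and 5.56% (1.91% to 15.1%) of the sorted and 53.5% (38.9% to 67.5%) of those of Zfp950. In Zfp1 the shares were 16.7% (6.68% to 35.9%) and 61.1% (47.8% to 73.0%). The span from the first to the last sorted insertion holds all sorted insertions by construction, so the background share in it is a description. In Zfp709 the 24 sorted insertions spanned 3.09 kb around the gene start, which held 9 of 48 background insertions (18.8%). The median background insertion of Zfp709 lay 136 kb upstream of the gene start. In Zfp984 the 14 sorted insertions spanned 1.71 kb, which held 7 of 28 background insertions. In the remaining hits the span held from 38.5% (Zfp873) to 100% (Zfp872 and Zfp932) of the background insertions. In Zfp872 and Zfp961 the sorted and background insertions were placed alike, with 99.8% and 99.5% upstream of Zfp872 and 11.8% and 14.8% upstream of Zfp961. Most insertions of the 14 KRAB hits were assigned to the KRAB exon or an earlier one. These were 1112 of 1132 sorted (98.2%) and 705 of 767 background insertions (91.9%). In 13 of the 14 genes no sorted insertion was assigned past that exon, and in 10 of the 14 no background insertion was. Of the background insertions of Zfp777, 53 of 104 were assigned to that exon or an earlier one.

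The libraries of the repressor screen shared positions. Of the insertions in sorted replicates 1 and 2, 18.8% and 27.5% were at positions found in both, while in the other screens at most 2.61% were. At the 19 hits 184 of 1305 sorted positions were in both. Of the 741 unsorted repressor positions at the hits 205 were also found in sorted repressor cells (27.7%), and of the 926 positions in the other unsorted libraries 54 were (5.83%). Zfp872 held a large part of this sharing. It alone had 79 of the 184 positions in both sorted libraries. Of its 126 unsorted repressor positions 79 were also found in sorted repressor cells, and of its 78 positions in the other unsorted libraries 29 were. The part of shared positions in the result was not tested beyond leaving out those found in both sorted libraries, which gave 20 hits.

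In the activator screen 2 of 26 genes tested were hits (7.69%), beside 4.64% of all 2842 genes tested. Zfp407 (chr18:84128027-84589725, minus strand), a large zinc finger protein with 22 C2H2 fingers, had 11 and 16 sorted activator insertions (6.32 and 10.9 per 10000). The unsorted activator libraries had 0.456 and 0.241, and the other unsorted libraries 0 to 0.428. Its log2 odds ratio was 4.70 ± 0.37 (edgeR adjusted p = 3.19e-08). Exon 8 received 24 of 27 sorted (88.9%) and 12 of 33 background insertions (36.4%), and 1 sorted insertion was reversed. So the sorted insertions of Zfp407 were assigned mostly to a late exon.

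Zfp335 (chr2:164891882-164911757, minus strand), a component of H3K4 methyltransferase complexes with 13 C2H2 fingers, was the other hit of the activator screen. It had 0 and 8 sorted insertions, so the call rested on sorted replicate 2 alone (log2 odds ratio 3.14 ± 0.58, adjusted p = 2.94e-04). edgeR did not call it (log2 fold change 2.42, adjusted p = 0.333), and without sorted replicate 2 it had no sorted insertion and was no hit. In edgeR, Zfp407 was the 1 gene called of 84 tested, and over all 8000 genes 1.45% were called higher and 0.0125% lower. With a replicate block the gene called was again Zfp407, beside 1.25% of all genes. Tested over genes with at least 20 background insertions, Zfp407 was the 1 hit of 94, beside 1.06% of all such genes. No gene of the 84 was called lower by edgeR, and at an unadjusted p below 0.05, 2 were higher and 7 lower. Neither Zfp407 nor Zfp335 has the KRAB box motif.

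In the PTGR screen 1 of 100 genes tested was a hit (1.00%), beside 0.666% of all 9303 genes tested, a share near the background. Zfp106 (chr2:120506820-120563843, minus strand), an RNA-binding zinc finger protein, had 5 and 12 sorted insertions against 11 and 4 in the unsorted PTGR libraries. The log2 odds ratio against the background was 2.18 ± 0.43 (adjusted p = 0.000752). It was not called by edgeR (adjusted p = 0.999), nor by the Fisher test against the unsorted PTGR libraries alone (log2 odds ratio 1.45, adjusted p = 0.298). It also missed the threshold without PTGR sorted replicate 2 (adjusted p = 0.386), activator unsorted replicate 1 (0.00139), activator unsorted replicate 2 (0.00514) or repressor unsorted replicate 1 (0.00241). Zfp800 had 3 and 3 sorted and 6 background insertions (log2 odds ratio 3.10 ± 0.83, adjusted p = 0.0497). edgeR called 0 of 83 genes in the PTGR screen, and 4 had an unadjusted p below 0.05. DESeq2 called 0 as well. Over all 8491 genes edgeR called 0.330% higher and 0.00% lower. With a replicate block it called 0 of the 83, beside 0.518% of all genes. Tested over genes with at least 20 background insertions, Zfp106 was the 1 hit of 94, beside 0.579% of all such genes.

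None of the 19 hits of the repressor screen was called in the other screens. Of all genes tested there, 4.64% (activator) and 0.666% (PTGR) were called. Genes with fewer than 3 sorted insertions were not tested. Of the 19, none that was tested had an adjusted p below 0.05 in the Fisher test of the activator or the PTGR screen. In the sorted activator libraries 9 of the 19 had no insertion, where a count of 0 in 32102 allows up to 0.935 per 10000, and together they had 36. In the sorted PTGR libraries 1 of the 19, Zfp963, had none and together they had 134. The log2 odds ratio of Zfp872 was -1.80 ± 1.02 in activator cells and -1.88 ± 0.55 in PTGR cells.

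The difference between screens was tested as an interaction in edgeR, with 2 sorted and 2 unsorted libraries of each screen. Against the activator screen, 10 of 119 genes had a larger change in the repressor screen and 0 a smaller one (adjusted p below 0.05), beside 1.09% and 0.687% of all 10767 genes. With replicate blocks 8 were larger, without Zfp248 (adjusted p = 0.0787) and Zfp873 (adjusted p = 0.383). Against the PTGR screen 11 of 128 were larger and 1 smaller, beside 1.12% and 0.545% of all 11188 genes. Zfp872, Zfp609, Zfp930, Zfp809, Zfp777, Zfp423, Zfp961 and Zfp280b were called in both comparisons, all of them hits. The 2 comparisons share the repressor libraries. Zfp872 had a difference in log2 fold change of 6.12 against the activator (adjusted p = 1.28e-12) and of 6.32 against the PTGR screen (adjusted p = 7.05e-25). The gene with a smaller change was Zfp638, a protein known from the silencing of unintegrated retroviral DNA, with 2 and 0 sorted repressor and 16 and 23 sorted PTGR insertions (difference -3.33, adjusted p = 0.0226, and 0.0506 with replicate blocks). Without PTGR unsorted replicate 1, the deeper library of that pair, 0 genes were called against the PTGR screen. Without PTGR unsorted replicate 2 there were 5, and without repressor unsorted replicate 2 there were 7.

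**Figure D5:**
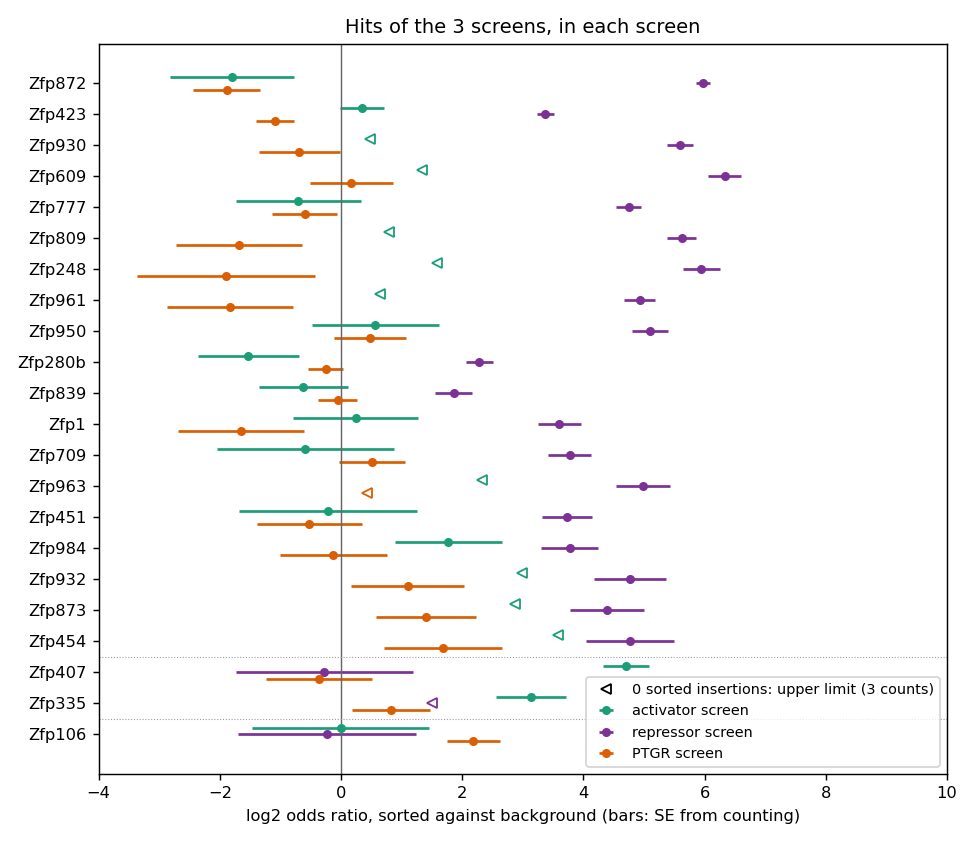
log2 odds ratio of sorted against background insertions (horizontal axis) in the activator (green), repressor (purple) and PTGR (orange) screens, for the 19 repressor hits, then the 2 activator hits and the PTGR hit, separated by dotted lines. Bars are standard errors from counting, and open triangles mark the upper limit set by 3 counts where a gene had no sorted insertion. The purple points of the 19 upper genes lie between 1.86 and 6.33, while Zfp407 stands apart in green at 4.70.

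Genes with more reversed insertions in sorted cells were called by the same Fisher test on the reversed assignment. In the repressor screen these were 3 of 24 genes tested (Zfp68, Zfp781 and Zfp868), beside 5.61% of all 2229 genes. In the activator screen they were 0 of 31 (3.14% of all genes) and in the PTGR screen 0 of 91 (0.500%). Zfp781 had 10 reversed and 1 sense sorted insertion, and all 10 reversed positions were sense insertions of the hit Zfp873, on the other strand. Zfp868 had 8 reversed and 0 sense ones, and all 8 were sense insertions of Zfp964. Zfp68 had 21 reversed and 5 sense ones, and 20 of the 21 were sense insertions of A430033K04Rik (chr5:138622859-138652414, plus strand), which was itself enriched (log2 odds ratio 4.84 ± 0.46). So nearly all of these reversed insertions lay in the sense orientation of a neighbouring gene. Most positions of the sorted repressor libraries were sense insertions of some gene within 200 kb (22266 of 26863 and 15204 of 18813), so this is a description.

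Of 19 genes listed as partners of KRAB zinc finger proteins or of heterochromatin, 12 were hits of the repressor screen, beside 1.05% of all genes with a background insertion. Trim28, the KRAB corepressor, had 331 and 302 sorted insertions (log2 odds ratio 4.70 ± 0.08). The H3K9 methyltransferase Setdb1 had 19 and 18 (5.34 ± 0.37), and its partner Atf7ip had 284 and 276 (4.34 ± 0.08). The HP1 genes Cbx1, Cbx3 and Cbx5 had log2 odds ratios of 4.52 ± 0.18, 5.94 ± 0.29 and 4.38 ± 0.18. Ehmt1, Ehmt2, Morc3, Chd3, Chd4 and Smarcad1 were hits as well. The DNA methylation genes Dnmt1, Dnmt3a, Dnmt3b and Uhrf1, the H3K9 methyltransferase genes Suv39h1 and Suv39h2, and Atf7ip2 were not. Of these, Dnmt1, Dnmt3a, Suv39h1 and Suv39h2 had fewer than 3 sorted insertions and were not tested. In the activator screen 0 of the 19 were hits, and in the PTGR screen 1, Trim28, with 309 sorted insertions. The authors flagged Trim28 for an excess of reversed insertions in the repressor and the PTGR screen, and advise caution with flagged hits.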

How the data were processed

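Insertion sites of the ORFtag cassette had been mapped by inverse PCR in 12 libraries. Per the submitters' processing notes and the methods, the authors trimmed reads with Trim Galore 0.6.0, aligned them to mm10 with Bowtie2, filtered them with SAMtools 1.9 and gave each insertion to a downstream non-first exon. The deposited lists hold positions and distances in bp and no read numbers. The authors also deposited 3 tables of insertion counts per gene, from which the gene names were taken. Their log2 odds ratios and adjusted p-values, per the file headers the authors' own comparisons, were not used.

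Each position was counted once per library. Values per 10000 are shares of the insertions within 200 kb. Tests were one-sided Fisher's exact tests (scipy 1.17.1) and quasi-likelihood tests in edgeR 4.0.16 (R 4.3.3, TMM, at least 10 insertions over the libraries used, 2 sorted against 2 unsorted), each with Benjamini-Hochberg adjustment over all genes tested, with DESeq2 1.42.0 as an alternative. Per the methods, the sorted cells of a replicate came from the transduced cells that also gave its unsorted library. The fit with the replicate number as a block is therefore a paired fit if these numbers match, which the labels do not state. In the repressor screen, sorted replicate 1 shared more positions with unsorted replicate 2 (9.86%) than with unsorted replicate 1 (8.17%). Sorted replicate 2 shared more with its own number (8.23% against 5.03%). An exact permutation test of 2 against 2 libraries cannot go below p = 0.33. Replicates are separate samples per the labels, and intervals and limits cover counting error only. Gene models were those of GENCODE vM21, which matched all 205 genes, on GRCm38. Of 28461 insertions, 28349 had their assigned distance end at an exon start of these models. No protein table was given, so KRAB boxes and C2H2 fingers were searched in translated coding sequences, and the wider KRAB motif was drawn after the first results. The genes, lists and tests were chosen with earlier results of these data known. Named were all hits, the 5 genes closest below the threshold, genes called by edgeR alone, those with more reversed insertions and the 5 with the most background insertions. A further gene of the list of KRAB and heterochromatin partners was left out of its counts and is not reported here. The tests were checked on simulated data. Alternatives covered the background, minimum counts, distance, thresholds, repeated positions, TMM, replicate blocks and each library left out.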

Additional observations from a re-analysis of the deposited data

Results flagged for a closer look

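The change from unsorted to sorted cells differed between the repressor and another screen in 22 tests of 14 genes. Values are differences in log2 fold change, repressor minus the other screen. Against the activator screen they were 6.12 for Zfp872, 5.29 for Zfp777, 3.76 for Zfp280b and 3.39 for Zfp423, which had insertions in both sorted groups. For Zfp609 (10.27), Zfp809 (10.08), Zfp873 (9.98), Zfp930 (9.84), Zfp961 (9.34) and Zfp248 (8.74) the sorted activator libraries had 0 insertions, so that these fitted values depend on the prior count of edgeR and are no measure of size. With a replicate block in each screen, Zfp248 (adjusted p = 0.0787) and Zfp873 (adjusted p = 0.383) were no longer called.

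Against the PTGR screen the differences were 6.32 for Zfp872, 5.93 for Zfp961, 5.83 for Zfp609, 5.57 for Zfp930, 5.43 for Zfp809, 4.56 for Zfp777, 4.43 for Zfp451, 4.37 for Zfp1, 4.28 for Zfp423 and 2.60 for Zfp280b. The value of Zfp963 (8.07) stands against 0 sorted PTGR insertions. The change of Zfp638 was lower in the repressor screen (-3.33), and its adjusted p was 0.0506 with replicate blocks.

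In 3 of the 22 hits of the screens, 1 of the 6 unsorted libraries lay far from the others. These were Zfp454 with 0.257 insertions per 10000 in PTGR unsorted replicate 1, Zfp873 with 0.433 in activator unsorted replicate 2 and Zfp963 with 0.402 in repressor unsorted replicate 1. Each is a count of 6, 9 or 7 insertions, and about 1 in 20 such groups is expected to show this by chance.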

How the results depend on the processing

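Of the 205 genes, the repressor screen called 19 in the main test and 15 to 26 under the alternatives, 26 at an adjusted p below 0.05, 23 with a maximum distance of 50 kb and 15 with at least 20 background insertions required. Leaving out 1 library gave 15 to 20, with 15 without sorted replicate 1. edgeR gave 19 without and 18 with a replicate block, and 7 in place of 19 where genes with a single insertion entered the test. Leaving out a library gave 15 to 18 in edgeR.

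The activator screen called 2 genes. It called 1 against its own unsorted libraries, with at least 20 background insertions, with no minimum, with at least 10 sorted insertions, in edgeR with or without a replicate block and in DESeq2, 1 to 2 when a library was left out, and 3 with a maximum distance of 50 kb. The gene lost was Zfp335 in the Fisher tests. In edgeR 1 to 2 genes were called, 2 without sorted replicate 1, and Zfp335 turned to a log2 fold change of -5.60 without sorted replicate 2, its only sorted library with insertions, and to 3.71 (past the threshold) without sorted replicate 1.

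The PTGR screen called 1 gene. It called 0 against its own unsorted libraries, with no minimum, with positions within 10 bp counted once (an alternative added after the data were seen), in edgeR with or without a replicate block and in DESeq2. It called 2 at an adjusted p below 0.05 and 0 to 1 when a library was left out. The comparison of the repressor with the PTGR screen gave 12 genes, and 0 to 12 when a library was left out. That with the activator screen gave 10, 8 with a replicate block and 8 to 13 when a library was left out. The cause of these shifts was not tested.

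Same-numbered sorted and unsorted libraries shared more positions than others in the activator screen (4.96% and 19.5% of sorted positions, against 2.25% and 1.46%) and in the PTGR screen (18.2% and 6.76%, against 0.342% and 1.79%). In the repressor screen sorted replicate 1 shared 8.17% with its own number and 9.86% with the other, and sorted replicate 2 shared 8.23% and 5.03%. Their replicate differences correlated across genes at 0.05 (activator), 0.00 (repressor) and 0.19 (PTGR). The replicate block left each nonzero count of calls among the 205 genes within 1.5 times of the fit without it, while over all genes it raised the PTGR calls from 28 to 44. Depth limited the sorted activator and repressor libraries most, where a count of 0 allows 0.935 and 0.801 insertions per 10000, above the background level of most of the 205 genes.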
